A study of Homo sapiens with 8 samples.

Results

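OLR1, IL7R and CR2 are 3 genes of cell-surface receptors best known from immune and vascular cells. They were 3 of the 34809 gene names on an Agilent whole-genome array, where they are measured by 4 of 42405 probes and by 7 spots. The genes were chosen because their level was far higher in BEX2-knockdown than in control HuCCT1 cells, so that this difference is given below as a description, with no test. HuCCT1 is an established human cell line derived from intrahepatic cholangiocarcinoma, a cancer of the bile duct epithelium.

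The study asked what the loss of BEX2, a small brain-expressed X-linked protein, does to these cancer cells. Total RNA of cells carrying 1 of 4 vectors was labelled with Cy3, and each vector had 2 arrays, 8 in all. The vectors shControl and shNontarget are labelled control. The vectors shBEX2-1 and shBEX2-2 are labelled BEX2 knockdown and express a short hairpin RNA against BEX2. The methods describe retroviral vectors, and the 2 target sequences they give are reverse complements of each other along nearly their whole length, so both hairpins address the same stretch of BEX2. The sources used here do not say whether a subline is a pool or a clone, nor which control vector carries the luciferase hairpin that the study names. The 8 arrays shared 1 slide. Row 1 of it held every control array and row 2 every knockdown array, which means that slide position and knockdown cannot be told apart.

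OLR1 encodes LOX-1, a C-type lectin-like scavenger receptor that binds oxidized low-density lipoprotein on endothelial cells, macrophages and smooth muscle. IL7R encodes the alpha chain of the interleukin-7 receptor, which pairs with the common gamma chain IL2RG to receive interleukin-7 and with CRLF2 to receive TSLP, and which signals through JAK1, JAK3 and STAT5, above all in lymphocytes. CR2, or CD21, is the receptor for C3d fragments of complement and for Epstein-Barr virus on B cells and follicular dendritic cells. On B cells it works in a complex that includes CD81.

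What each probe reads decides what its signal can say, so the probes are shown first. The IL7R, OLR1 and 1 of the CR2 probes are shown by their first 30 of 60 bases, and the other CR2 probe is shown whole, because it ends in a stop codon, given in capitals.
OLR1 probe: ttgtagatgaactcttctcaactctgtttt
IL7R probe: catcctgcttctaccatgtggatttggtca
CR2 probe nearest the 3′ end: gtacaattcaggctttggatgtttctttag
CR2 probe at the coding end: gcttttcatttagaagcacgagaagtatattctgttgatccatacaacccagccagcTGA

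By the array's annotation on hg19, the OLR1 probe lies at chr12:10311598-10311657 on the minus strand. It starts at base 1757 of transcript NM_002543. The IL7R probe lies at chr5:35876781-35876840 on the plus strand, at base 1661 of NM_002185. Both CR2 probes are assigned to NM_001006658, on the plus strand. One lies at chr1:207658840-207658899, at base 3338, and 1 of its reading frames runs without a stop up to the final TGA. The other lies at chr1:207663116-207663175, at base 4045, which is 4276 bases further along the genome and 707 bases further along the transcript. The OLR1, IL7R and 3′ CR2 probes have 2 spots each on an array, and the coding-end CR2 probe has 1.

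Values are scanner intensities on the log2 scale relative to the 75th percentile of the same array, so that a level of 0 is the 75th percentile. That percentile was an intensity of 667 to 838 in control and of 441 to 631 in knockdown cells. Of the 58717 spots, 59.8% to 64.6% exceeded background clearly on any 1 array. The shNontarget arrays stood apart: 34.9% of the genes tested differed by more than 1 log2 unit between the 2 arrays of that vector, against 0.557% to 1.76% for the other 3 vectors. BEX2 itself had levels of -3.36 and -3.91 with shControl and of -2.70 and -3.77 with shNontarget, against -5.21 and -5.54 with shBEX2-1 and -4.92 and -4.60 with shBEX2-2. The target was thus lower on every knockdown array than on every control array, by 1.63 log2 units on average. On both shBEX2-1 arrays it was not well above background.

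OLR1 was barely detected in control cells and clearly expressed in both knockdown sublines. Its level was -4.76 and -4.89 on the shControl arrays and -5.57 and -6.27 on the shNontarget arrays. It was -0.10 and -0.65 on the shBEX2-1 arrays and -2.23 and -2.46 on the shBEX2-2 arrays. Every knockdown array was above every control array, and within the knockdown both shBEX2-1 arrays were above both shBEX2-2 arrays. The first spot of the OLR1 probe had raw intensities of 5.78 to 24.3 on control arrays and of 114 to 411 on knockdown arrays, and the second spot of 12.9 to 34.4 and 116 to 413. Both spots were well above background on all knockdown arrays. In control cells, 1 spot of the pair was well above background on each shControl array and neither was on the shNontarget arrays. The mean level was -1.36 ± 1.16 (SD, n = 4) in knockdown and -5.37 ± 0.70 (SD, n = 4) in control arrays, 16.2-fold higher in knockdown. Dim signals depend on the background correction, and with normexp the log2 difference of 4.01 became 2.12. Against the mean of the control arrays, shBEX2-1 was 31.9-fold and shBEX2-2 was 8.17-fold higher. That mean includes the shNontarget arrays, where OLR1 was at background. Against shControl alone, the folds were 21.8 and 5.59. In RNA of whole cultures, a change in the number of cells that express a gene and a change in its RNA per cell cannot be told apart.

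IL7R gave no signal in control cells and a low signal in all knockdown arrays. Its level was -7.28 and -7.46 with shControl, -7.36 and -7.42 with shNontarget, -3.14 and -3.35 with shBEX2-1 and -4.53 and -4.90 with shBEX2-2. As for OLR1, the 2 groups did not overlap and shBEX2-1 was above shBEX2-2. All 8 IL7R spots of the control arrays, at intensities of 3.62 to 5.24, were at background, where the scanner software puts a substitute value, and so they have no order among themselves. The spots on knockdown arrays read 17.5 to 55.3 and all were well above background. Because control cells gave only a bound, the fold is a bound too, and it holds only under the detection floor chosen. Under that floor, knockdown was at least 8.61-fold higher than control, at least 14.3-fold for shBEX2-1 and at least 5.17-fold for shBEX2-2. These bounds take the lowest signal among probes with at least 50% of their spots well above background as the detection floor. A probe can read higher than that and still be at background. On shNontarget replicate 1 the floor was -7.56, while OLR1 at -5.57 was not well above background. An alternative added after the data were seen took the floor from probes with all spots above background. The bounds then fell to at least 2.49-fold, 4.14-fold and 1.49-fold. With normexp, which offsets dim signals, the log2 difference was 1.02, less than each bound for the knockdown as a whole.

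CR2 behaved like IL7R at its 3′ probe and not at its other probe. At the 3′ probe the level was -6.37 and -6.57 with shControl, -6.35 and -5.97 with shNontarget, -2.49 and -2.80 with shBEX2-1 and -3.29 and -3.35 with shBEX2-2. No control spot, at 4.87 to 17.2, was well above background, and every knockdown spot, at 57.0 to 78.5, was. Both spots of the probe were thus bright on each knockdown array. Under the same floor as for IL7R, knockdown was at least 9.88-fold higher than control, at least 12.5-fold for shBEX2-1 and at least 7.83-fold for shBEX2-2. With the stricter floor the bounds were 4.97-fold, 6.27-fold and 3.94-fold. With normexp the log2 difference was 1.23.

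The CR2 probe at the coding end gave the opposite picture. Its single spot was well above background on 1 array only, shControl replicate 1, with an intensity of 186, and read 3.24 to 12.9 on the other 7 arrays. On all 4 knockdown arrays it was at background. Of 21 spots within 2 rows and columns of it, 1 was at least 4 log2 units brighter on that array than on every other, against 132 of all 58717 spots. The CR2 spot was itself not among those counted, as it exceeded the next array by 3.71. The CR2 signal in knockdown cells therefore came from the probe nearest the 3′ end alone, and whether it stands for a full-length coding transcript was not tested.

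**Figure D1:**
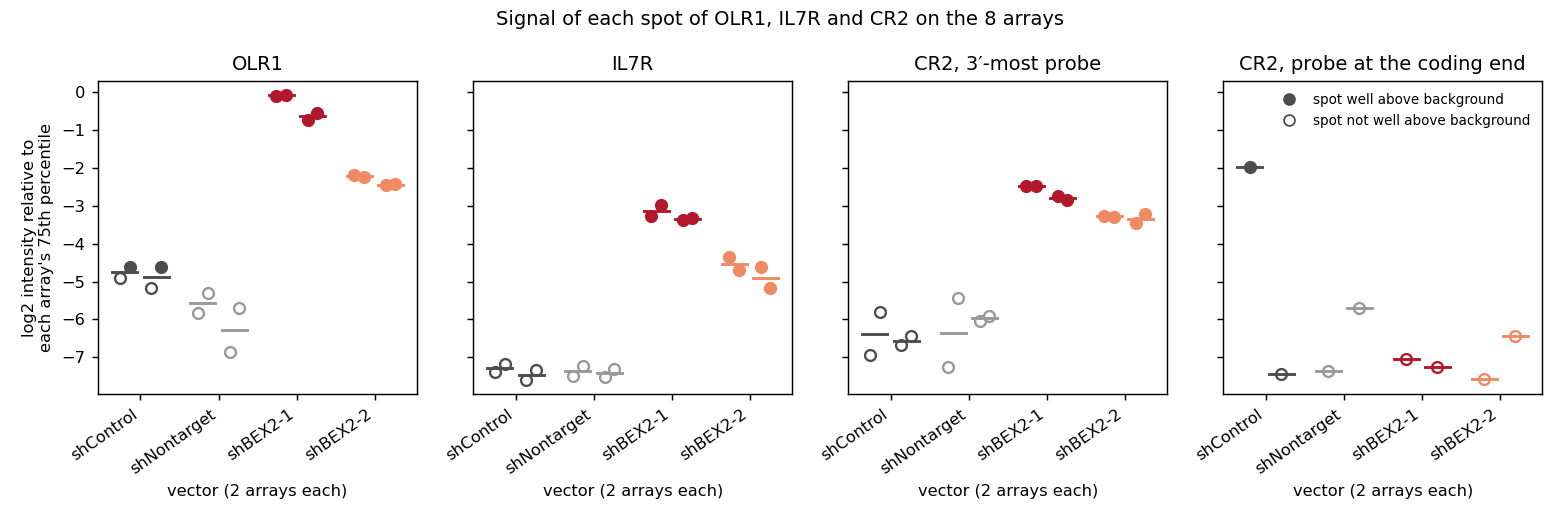
Level of each spot of OLR1, IL7R and CR2, as log2 intensity relative to the 75th percentile of its array, for the 2 arrays of each vector. Filled points are spots well above background, open points are not, and bars are the mean of an array's spots. At the OLR1, IL7R and 3′ CR2 probes all shBEX2-1 points are above all shBEX2-2 points, which are above all control points, while the coding-end CR2 probe is filled only on shControl replicate 1.

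The plot of spots by array shows the order shared by the 3 genes, with shBEX2-1 highest, shBEX2-2 next and the control vectors lowest. Over all genes tested, 11.4% had every knockdown array above every control array, and since this difference chose the genes nothing is read from it here. BEX2 read lowest with shBEX2-1, where it was at background.

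The difference between the sublines was not used to choose the genes and was tested, with limits for IL7R and CR2. Both entered the test only through the knockdown arrays, for which they had been chosen as high. Their SE and interval take part of the spread from control arrays, where both were at background. Those readings do not measure how far the level of either gene varies. OLR1 was at background on the shNontarget arrays, so this holds in part for it too. OLR1 was 3.91-fold higher with shBEX2-1 than with shBEX2-2, a log2 difference of 1.97 (SE 0.32, 95% interval 1.20 to 2.74). IL7R was 2.77-fold higher, with a log2 difference of 1.47 (SE 0.34, interval 0.65 to 2.29). CR2 was 1.59-fold higher, with a log2 difference of 0.67 (SE 0.28, interval -0.01 to 1.35). For all 3 genes both shBEX2-1 arrays were above both shBEX2-2 arrays, an order that 33.3% of all genes tested had. By absolute size, OLR1 had the 45th, IL7R the 136th and CR2 the 1399th largest difference of 20450 genes. BEX2 was at background with shBEX2-1, so that for it only a bound could be given: shBEX2-2 was at least 1.53-fold higher, or at least 1.28-fold with the stricter floor. With normexp the differences were 1.59 for OLR1, 0.73 for IL7R and 0.50 for CR2.

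None of these differences passed the test when the spread was taken from all 8 arrays. In limma with Benjamini-Hochberg adjustment over all genes, the adjusted p was 0.128 for OLR1, 0.252 for IL7R and 0.692 for CR2. In that fit 0.00978% of the genes were called, which is 2 genes, INHBB and RSAD2, named here for being the only ones. The unadjusted p was 0.000705 for OLR1, 0.00430 for IL7R and 0.0527 for CR2, and 7.29% of all genes had one under 0.05. The outcome turned on which arrays gave the spread, since the control arrays enter only through it. For IL7R and CR2 the control arrays were at background, so the p from all 8 arrays rests partly on readings without a measured level. For these genes that p cannot decide whether the sublines differ. With the 4 knockdown arrays alone, the limma adjusted p was 0.00148 for OLR1, 0.00742 for IL7R and 0.0345 for CR2, but 13.4% of all genes were called as well. Leaving out either shNontarget array changed the spread and not the differences, and as it leaves that vector with 1 array, no test is read from it. Among the alternatives that left no vector with 1 array, the limma adjusted p ran from 0.00148 to 0.251 for OLR1. It ran from 0.00742 to 0.379 for IL7R and from 0.0345 to 0.740 for CR2. The difference of each gene stayed positive in all 16 alternatives. An exact permutation test of 2 against 2 arrays cannot give a p below 0.333.

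**Figure D2:**
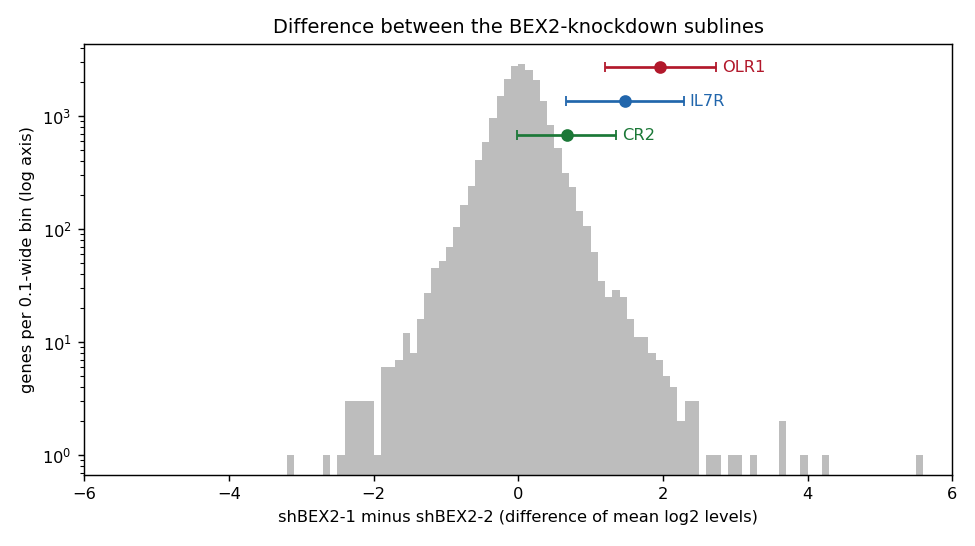
Difference between shBEX2-1 and shBEX2-2 (mean log2 level, 2 arrays each). Grey bars count the 20450 genes tested, on a log axis, and points with bars are the estimates of 3 genes with 95% intervals from limma, placed at arbitrary heights. OLR1 at 1.97 and IL7R at 1.47 lie in the right tail, and CR2 at 0.67 nearer the centre.

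As the histogram of subline differences shows, most genes differed little between the sublines, and OLR1 and IL7R were among the few with a difference above 1. Only 0.220% of the genes differed as much as OLR1 in either direction, 0.665% as much as IL7R and 6.84% as much as CR2. These shares and the ranks above are descriptions, since genes chosen for a large knockdown rise have more room to differ between sublines than most genes. IL7R and the 3′ CR2 probe also entered the test through the knockdown arrays alone, the only ones where they were above background.

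The 2 control vectors could be compared only for OLR1, since IL7R and the 3′ CR2 probe were at background with both. OLR1 was lower with shNontarget than with shControl by 1.10 log2 units (SE 0.32, interval -1.87 to -0.33), and both shControl arrays were above both shNontarget arrays, as for 12.1% of all genes. Given that it was at background with shNontarget, shControl was at least 2.14-fold higher, or at least 1.40-fold with the stricter floor. The limma adjusted p was 0.486 and no gene was called between the control vectors (0%), with 7.66% at an unadjusted p under 0.05. Leaving out shNontarget replicate 1 gave a difference of -1.45, and leaving out replicate 2 gave -0.75. Each of these fits leaves shNontarget with 1 array, so no test is read from them. With normexp the difference was -0.16 (adjusted p 0.983), smaller than either bound. Against shControl alone, OLR1 was 21.8-fold higher with shBEX2-1 and 5.59-fold with shBEX2-2. Against shNontarget, it was at least 46.7-fold and at least 11.9-fold higher, or at least 30.5-fold and 7.81-fold with the stricter floor.

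Between knockdown and control, 12.9% of all genes tested were called in limma at an adjusted p under 0.05, 6.68% higher and 6.26% lower. With normexp background correction, 63.2% of the genes called were higher, against 51.6%. That is the background for the partners and relatives of the 3 receptors, which were gathered in 11 lists. Of 215 listed genes on the array other than the 3 receptors, 48 were at background on all 8 arrays and 148 were tested. Of those, 19 rose and 6 fell, and their median log2 change was 0.06, against 0.03 for all genes.

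Among the scavenger and lipoprotein receptors, to which OLR1 belongs, 3 of 13 tested genes rose and none fell, with a median of -0.02. They were SCARB1, the receptor for high-density lipoprotein (0.79, SE 0.16, adjusted p 0.0152), the macrophage lysosomal protein CD68 (0.99, adjusted p 0.0474) and LRP8, a receptor for apolipoprotein E and reelin (1.10, adjusted p 0.0304). The classical macrophage receptors for modified lipoprotein were hardly measurable, as CD36 was at background on all arrays and MSR1 was above it on 1. SCARF1, an endothelial scavenger receptor, differed by -0.02 (adjusted p 0.980). The OLR1 protein is known to be shed from the cell surface by proteases such as ADAM10, for which the difference was 0.26 (adjusted p 0.218), while ADAM17 differed by -0.08 (adjusted p 0.774). None of the 3 rises was called with shNontarget alone as control, where the adjusted p of SCARB1 was 0.0955, nor with either shBEX2-2 array left out.

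OLR1 lies on chromosome 12 in a cluster of genes for C-type lectin-like receptors of natural killer and myeloid cells. Of 16 other genes of that family on the array, 9 were at background on all arrays, 4 were tested and none was called. Among those 4, the natural killer receptor gene KLRC1 had the largest difference, -1.08 (adjusted p 0.0521).

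Among the genes of interleukin-7 and TSLP signalling, 1 of 17 tested rose and 2 fell, with a median of -0.10. IL7, the ligand of the IL7R chain, rose. Its level was -2.96 and -3.02 with shControl, -3.43 and -2.90 with shNontarget, -2.05 and -2.05 with shBEX2-1 and -2.25 and -2.32 with shBEX2-2, so that the groups did not overlap. The change was 0.91 (SE 0.17, adjusted p 0.00914), and it was not called with the shNontarget arrays alone as control (adjusted p 0.0801). TSLP, the other ligand, was at background on every array. IL2RG, the partner chain for interleukin-7, was measured on all 8 arrays and differed by 0.24 (adjusted p 0.454). CRLF2, the partner for TSLP, was above background on 5 arrays and differed by -0.91 (adjusted p 0.196). The kinases JAK1 (-0.31) and JAK3 (0.25) and the factors STAT5A (-0.10) and STAT5B (-0.20) did not pass the test, with adjusted p from 0.192 to 0.704. SOCS2, a feedback inhibitor that STAT5 induces in many cells, fell by 0.96 (adjusted p 0.0392, and 0.0509 with the replicate block), and the survival factor MCL1 fell by 0.52 (adjusted p 0.0414). BCL2, the survival gene that interleukin-7 supports in T cells, was at background on all arrays.

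Other receptors of the cytokine family mostly did not pass the test. Of 27 tested, with a median of 0.06, IL20RA fell by 1.93 (adjusted p 0.00188). It is a receptor chain for interleukins of the IL-10 family. IL2RA and IL2RB, lymphocyte receptor chains, were at background throughout.

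Among the complement receptors and regulators, to which CR2 belongs, 1 of 10 tested rose and 1 fell, with a median of -0.17. C4BPB, the beta chain of a plasma inhibitor of complement, rose by 1.89 (SE 0.25, adjusted p 0.00257). CD59, which blocks the membrane attack complex, fell by 1.21 (SE 0.16, adjusted p 0.00287, and 0.0553 with the shNontarget arrays alone as control). The surface regulators CD46 (0.05, adjusted p 0.915) and CD55 (0.33, adjusted p 0.165) and the complement protein C3, from which the CR2 ligand is cut and which had a level above 4 in both groups, did not pass the test. CR1, the receptor most like CR2, was above background only on shControl replicate 1, the array on which the coding-end CR2 probe was. Of the B-cell partners, CD81, which most cells express, differed by 0.11 (adjusted p 0.901). In that list 1 of 6 tested genes changed: PIK3CD, a lipid kinase subunit of leukocytes, fell by 0.98 (adjusted p 0.00283), with a difference of -0.40 at its other probe.

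Genes of the NF-kB pathway and its known targets were listed because NF-kB is known to act on several of these receptors in other cells. Of 31 tested, 8 rose, which is 25.8% against 6.68% of all genes, and 1 fell, and the median was 0.39. As the lists were chosen with earlier results of these data known, this share is a description and no independent support. The largest rises were in the interleukin gene IL1B (1.32, adjusted p 0.00358), the surface protein gene CD83 (1.29, adjusted p 0.00111) and IL1A (1.17, adjusted p 0.0335). BCL2A1, a survival gene named here after its values were seen, had probes that disagreed, with differences of -0.17 at the probe used and 2.40 at another, which was above background on 5 arrays. RELB, a subunit of NF-kB, fell by 0.71 (adjusted p 0.00468). The number that rose was between 5 and 13 when an array was left out, 13 with shControl alone as control and 3 with shNontarget alone. In the list of transcription factors known at the promoters or enhancers of the 3 genes, 3 of 21 rose: the AP-1 subunits FOSL2 (1.51, adjusted p 0.00293) and FOSL1 (0.77, adjusted p 0.0261), and the octamer factor POU2F1 (0.75, adjusted p 0.0300). FOSL2 was not called with shNontarget alone as control (adjusted p 0.0502).

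Of the 25 list genes called, BIRC3, C4BPB, CD83, IL1B, IL20RA and PIK3CD were called in all 15 other limma fits that used another scaling, background correction, block, probe rule or control vector, or left out an array. The signs of all 25 were the same in each of those fits. Of the other named genes, CD14, CD68, FOSL1, IL1A, LRP8, MCL1, POU2F1 and SOCS2 were called in only 7 to 9 of them, with limma adjusted p of up to 0.275.

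**Figure D3:**
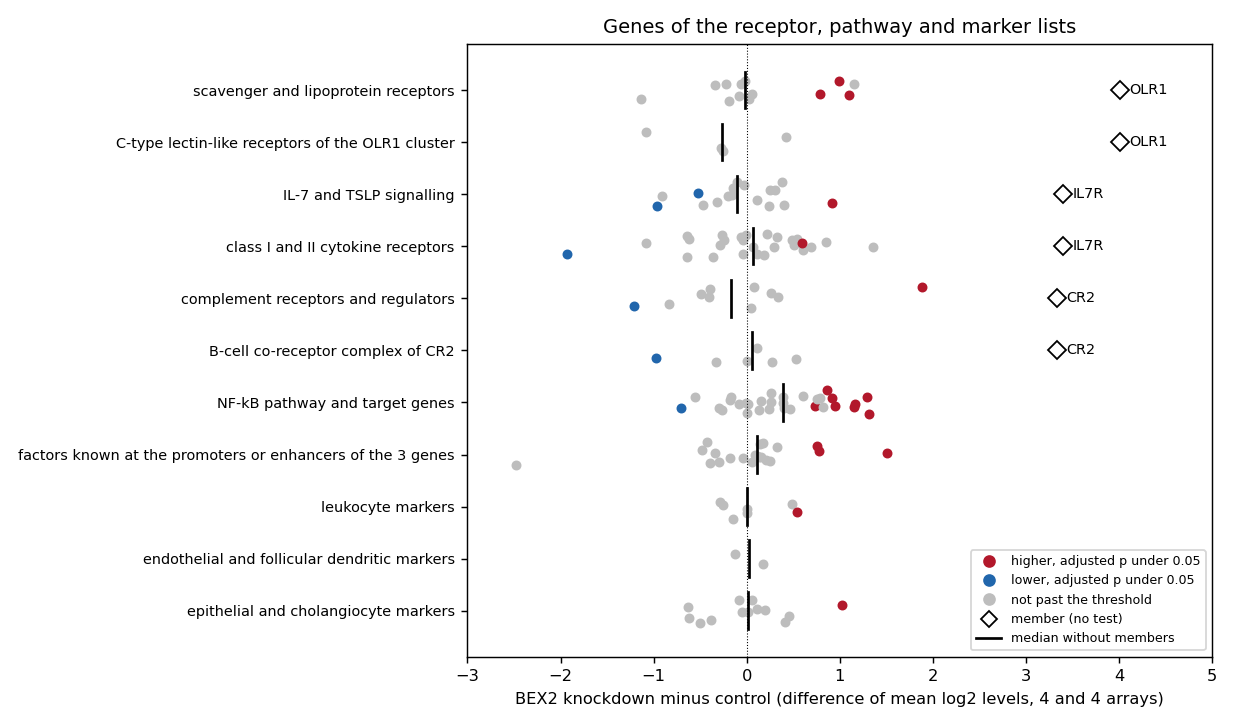
Change between knockdown and control (difference of mean log2 levels, 4 and 4 arrays) for every tested gene of the 11 lists. Red and blue points passed an adjusted p under 0.05, grey points did not, black bars are list medians without the 3 receptors, and diamonds are the receptors, which were chosen by this difference and of which IL7R and CR2 were at background in control. By the probe that stood for each gene, the highest other point is C4BPB at 1.89.

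The strip plot of the lists shows most partners and relatives of the 3 receptors near 0, with points on both sides. Markers of cells that normally carry these receptors were read on the same arrays. Of 19 leukocyte markers on the array, 8 were at background on all arrays, among them the B-cell markers MS4A1, CD22 and CD79B and the T-cell marker CD2. Other markers of the same cells were above background, CD4, CD8A and CD79A on 8 arrays, PTPRC on 7 and CD3D on 6, and none of these was called. CD14 alone of 7 tested rose, by 0.54 (adjusted p 0.0295). The summed level of the leukocyte markers, relative to the 75th percentile, was 7.26 to 12.8 on control arrays and 7.77 to 9.08 on knockdown arrays. That sum follows mainly CD4 and CD79A, the brightest of the 7 tested, with log2 levels of 2.35 and 0.96 on shControl replicate 2. Of 10 endothelial and follicular dendritic markers, PECAM1, KDR, TEK, TIE1, CXCL13 and FCER2 were at background on all arrays, and the summed level was 0.192 to 0.898 on control and 0.218 to 0.343 on knockdown arrays. Of 14 epithelial and cholangiocyte markers, 13 were tested and only KRT8, a keratin, was called (1.02, adjusted p 0.0165, with 0.65 at its other probe). On each array 13 or 14 of them were above background, and their summed level was 737 to 1053 on control and 991 to 1158 on knockdown arrays.

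Neighbouring genes were compared to see whether the differences extended along the chromosome. Within 250 kb of the OLR1 probe lay 17 other probes for 11 genes, and 5 of the genes were at background on all arrays. One neighbour stood out, C12orf59, which RefSeq calls TMEM52B, a membrane protein gene 31.8 kb from the OLR1 probe. Its level was -7.19 and -7.28 with shControl, -6.90 and -7.19 with shNontarget, -4.27 and -3.82 with shBEX2-1 and -5.17 and -5.03 with shBEX2-2. All knockdown arrays read above all control arrays, as for 11.4% of all genes tested, and shBEX2-1 above shBEX2-2, as for 33.3%. OLR1 had the same order, and a relation between the 2 genes was not tested. C12orf59 was well above background on 3 arrays only, both of shBEX2-1 and shBEX2-2 replicate 2. The order thus includes arrays at background, and the filter on dim probes left the gene out of the tests. No neighbour of OLR1 among those tested was called. GABARAPL1, an autophagy gene 63.1 kb away, had levels of -0.17 in control and -0.20 in knockdown arrays at the probe nearby. CLEC12B, a myeloid inhibitory receptor, differed by 0.42 (adjusted p 0.185), and KLRC4 by -1.23 (adjusted p 0.0877).

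Within 250 kb of the IL7R probe lay 6 probes for 3 genes. SPEF2, a gene of sperm flagella, fell by 1.17 (adjusted p 0.0131) at a distance of -206.5 kb along the chromosome, and its second measured probe differed by -1.54. UGT3A1 and UGT3A2, genes of sugar transferases, were at background. Near CR2 lay 5 probes for 5 genes. CD55 and the unnamed transcripts LOC100129101 (-0.12) and a lincRNA (0.56) did not pass the test, CR1L was at background and CR1 was as given above.

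**Figure D4:**
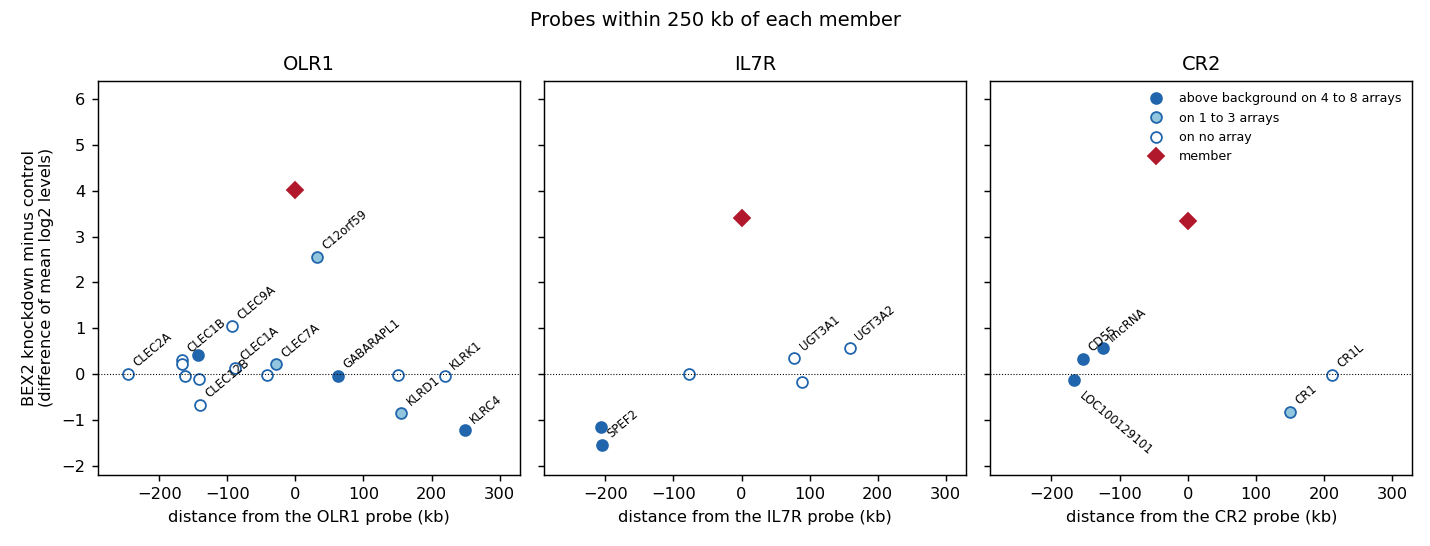
Difference between knockdown and control (mean log2 levels) of each probe within 250 kb of the OLR1, IL7R and 3′ CR2 probes, against its distance in kb along the chromosome. Dark points were well above background on 4 to 8 arrays, light points on 1 to 3 and open points on none. C12orf59, at 31.8 kb from OLR1, is the one neighbour with a difference above 2, against control arrays at background.

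The plot of neighbours shows open points, which carry no measured level, for most probes near OLR1 and IL7R. Upstream sequences of IL7R and CR2 are shown so that the letters before these 2 starts can be set beside the common rise. They are the 250 bases before the RefSeq start on GRCh38.p14, chr5:35856641-35856890 and chr1:207454078-207454327, both on the plus strand, with the E-box CACGTG in capitals.
IL7R promoter: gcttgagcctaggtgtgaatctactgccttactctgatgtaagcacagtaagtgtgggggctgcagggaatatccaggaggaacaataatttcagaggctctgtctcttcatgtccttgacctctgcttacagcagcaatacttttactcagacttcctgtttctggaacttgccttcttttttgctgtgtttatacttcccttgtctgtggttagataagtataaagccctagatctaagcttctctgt
CR2 promoter: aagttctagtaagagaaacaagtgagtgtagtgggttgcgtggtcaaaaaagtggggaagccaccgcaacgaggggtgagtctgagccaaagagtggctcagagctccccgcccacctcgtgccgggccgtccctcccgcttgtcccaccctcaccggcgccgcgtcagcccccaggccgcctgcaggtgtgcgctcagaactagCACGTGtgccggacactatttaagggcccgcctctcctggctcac

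The 2 windows differed in composition, with 43.6% G and C for IL7R and 62.8% for CR2, against a median of 58.0% over 35116 promoters of this length. CACGTG, which reads the same on both strands, was found once in the CR2 window, 45 bases before the start, and in 6.34% of all promoters. Also searched on both strands were TGANTCA of AP-1 (in 6.57% of all promoters), TTCNNNGAA of STAT factors (6.57%), GTAAACA of forkhead factors (2.98%), CCGGAAG of ETS factors (8.52%) and the NF-kB motif (9.96%), and these letters were in neither window.

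Across the 8 arrays the 3 genes followed each other closely. Pearson's r was 0.98 between OLR1 and IL7R, 0.943 between OLR1 and CR2 and 0.983 between IL7R and CR2. These are descriptions without a p, since the arrays fall into knockdown and control and every gene with a large difference shares that step. By the same measure, the 5 tested genes most like OLR1 were C5orf30, GPRC5A, AY239294, ENST00000332454 and CSAG2, with r from 0.986 to 0.994. Those most like IL7R were LPCAT4, SERPINB2, CCL20, AGAP2 and BX350880, with r from 0.986 to 0.992. Of these, SERPINB2, an inhibitor of plasminogen activators, had a knockdown difference of 2.82 and a subline difference of 0.96. Those most like CR2 were SPRYD4, POLR2A, ENST00000394884, C12orf4 and TXNRD1, with r from 0.987 to 0.998, and TXNRD1, a thioredoxin reductase, had differences of 1.46 and 0.40. Most of these genes moved far less than the receptors, as 9 of the 15 had a knockdown difference under 1.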

How the data were processed

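Total RNA of HuCCT1 cells was labelled with Cy3 and hybridized to single-colour Agilent arrays. The authors deposited, for each spot, the processed intensity of Agilent Feature Extraction 10.7.3.1, which subtracts background and replaces low values by a surrogate, not scaled between arrays. The members and lists were chosen with earlier results of these data known.

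Control spots were left out, and 3 to 15 outlier spots per array were missing values. Intensities were taken to log2, the 75th percentile of each array was subtracted and spots of a probe were averaged. A probe counted as well above background if at least 50% of its spots were marked so by the scanner software. Probes above background on at least 4 of 8 arrays were kept and the one with the highest mean stood for its gene (20450 genes). For a group at background on all arrays, the bound sets the brighter mean against a floor. On each array the floor is the dimmest level of any probe above background, or the probe's own level if that is higher. Probes at background can read above that dimmest level, so each bound holds only under the floor used. Where the probe's own level served on both arrays, as with shNontarget for all 3 receptors, the bound allows for no error of measurement.

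Tests used lmFit and eBayes with an intensity trend in limma 3.58.1 (R 4.3.3) with Benjamini-Hochberg adjustment, over all genes and all 8 arrays, and were tested on simulated data. Python 3.11.15 was used to read files (pandas 2.3.3, numpy 2.4.6) and to draw plots (matplotlib 3.10.9). Nothing in the labels ties the 2 arrays of a vector to separate cultures, so p-values measure the spread between arrays, which may be technical. The main fit of knockdown against control had no term for vector. Precision is limited by the number of arrays. Replicate numbers were taken to pair arrays across vectors, since the names of the deposited files give each number a day. The replicate differences of 2 vectors correlated over genes with r between -0.0628 and 0.259. Genes named are the 3 receptors, BEX2, receptor partners and ligands listed by hand, up to 3 called genes per list and direction, genes within 250 kb and the 5 genes most alike. Some genes that this rule names are not reported here. Alternatives covered scaling, background correction, the deposited table of the whole series, filters, probe choice, blocks, control vectors taken singly, arrays left out in turn, and other tests. Of 219 listed genes, 218 were on the array by name. Gene names and hg19 coordinates are those of the array design, and promoters are from RefSeq (GRCh38.p14), which had IL7R and CR2.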

Additional observations from a re-analysis of the deposited data

How the results depend on the processing

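The higher level of OLR1, IL7R and CR2 in knockdown cells kept its sign under all 17 alternatives. With normexp background correction, which adds an offset to dim signals, the log2 differences shrank to 2.12, 1.02 and 1.23. Bounds with the stricter detection floor were 2.49-fold for IL7R and 4.97-fold for CR2. The test between sublines depended on which arrays gave the spread. It called 17 genes with quantile normalization, 6 with the mean of a gene's probes, 2732 with only the 4 knockdown arrays, and 0 with normexp, with no filter, with the filter on all 8 arrays, without the trend or with the replicate block. Leaving out 1 array gave 0 to 3016. No member was called between sublines or between control vectors with the replicate block, and SOCS2 was the one list gene whose call it ended. With only the 4 arrays, the differences of 1.97 (OLR1), 1.47 (IL7R) and 0.67 (CR2) passed the threshold. With an array left out these were 1.69 to 2.24, 1.28 to 1.66 and 0.52 to 0.82, and with normexp 1.59, 0.73 and 0.50. Between control vectors, leaving out an array gave 0 to 9459 called genes, and OLR1 differences of -1.45 to -0.75. With normexp that difference was -0.16.

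Knockdown against control called 2646 genes, 1247 to 4722 with an array left out, 6842 with shControl and 341 with shNontarget alone as control, 5422 by the methods' t-test unadjusted, 863 by the rank product and 1161 with an added minimum log2 change of 1. The list genes called were 25, and under the same settings 13 to 38, 53, 7, 54, 8 and 10. With the filter on all 8 arrays the 3 receptors were not tested. Signals near background limit the folds of IL7R and CR2, and the causes of these changes were not tested.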

Other observations

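FOS, the AP-1 subunit of the transcription factor list, was not called between knockdown and control but separated the control vectors, and is named here after its values were seen. Its level was -3.08 and -3.04 with shControl, 0.51 and 3.73 with shNontarget, and between -3.21 and -2.77 on the knockdown arrays. The shNontarget arrays were thus above all 6 others and far apart from each other. Their mean exceeded that of shControl by 5.18 log2 units. OLR1 was lowest on the same 2 arrays, while IL7R and the 3′ CR2 probe were at background on the shControl arrays as well. No relation between these values was tested.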
